A study of Mus musculus with 2 samples.

Results

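Interferon-responding macrophages were C1q-expressing cells of visceral adipose tissue (VAT) that carried many transcripts of Ifit1, Ifit3 and Rsad2. They numbered 56 of the 25198 cells that passed the filters, 35 in the normal water (NW) library and 21 in the antibiotics (ABX) library. A member had a summed C1qa, C1qb and C1qc count of at least 10 unique molecular identifiers (UMIs, the distinct mRNA molecules counted per cell), a summed Ifit1, Ifit3 and Rsad2 count of at least 8, no Cd3e, Cd3d, Xcr1 or Clec9a, and at most 1 UMI of Cd79a. The last conditions kept out T cells, conventional type 1 dendritic cells and B cells. The reference for every comparison was the C1q cells, that is, cells with at least 10 C1q UMIs, in which the sum of Ifit1, Ifit3 and Rsad2 was 0. There were 5581 reference cells in NW and 4600 in ABX.

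The cells were CD45+ cells, bead-sorted from digested VAT (labelled eWAT) of 15-week-old wildtype (WT) C57BL/6 mice. Mice of one group drank normal water and those of the other took antibiotics, for which the methods name ampicillin, streptomycin, colistin and vancomycin in the drinking water. Both groups were otherwise alike in strain, genotype and age. The comparison asks what depleting gut microbes does to VAT immune cells. Each condition was 1 library, the number of mice behind each is not given in the sources used here, and no value below carries a spread between mice, so no p-value is given. The intervals are 95% intervals for counting error only.

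Type I interferons are secreted proteins that nearly all cells can sense through one receptor, IFNAR. The receptor's kinases activate a transcription factor complex, ISGF3, which binds interferon-stimulated response elements in the promoters of many genes whose products block viral replication at many steps. Macrophages hold many of the sensors that start such a response, and small groups of tissue macrophages with interferon-stimulated transcripts are seen also in mice without a known infection. Interferon gamma uses another receptor and raises a partly different set, among them the guanylate-binding proteins and MHC class II.

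The 3 genes of the rule are classical targets. Ifit1 and Ifit3 encode tetratricopeptide proteins that bind foreign RNA or the complex that does, and Rsad2 encodes viperin, an enzyme that makes a chain-terminating nucleotide. Their promoters are shown because the interferon-stimulated response element is a short repeat that can be read by eye, GAAANNGAAA or, on the other strand, TTTCNNTTTC. RefSeq sequences of build GRCm38.p6 follow, 5′ to 3′ on the strand of the gene, 130 bases from 150 to 21 bases upstream of the RefSeq start, with every match in capitals. Ifit1 is chr19:34640739-34640868 on the + strand, Ifit3 is chr19:34583379-34583508 on the + strand, Rsad2 is chr12:26456473-26456602 on the - strand, Isg15 is chr4:156200839-156200968 on the - strand, Oas3 is chr5:120777680-120777809 on the - strand and Cmpk2 is chr12:26469065-26469194 on the + strand. Isg15, Oas3 and Cmpk2 are among the genes highest in the members, and Cmpk2 is shown as a neighbour of Rsad2 without a match.
Ifit1: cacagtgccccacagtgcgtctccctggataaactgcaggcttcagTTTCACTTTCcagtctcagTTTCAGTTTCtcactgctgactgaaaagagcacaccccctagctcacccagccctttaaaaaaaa
Ifit3: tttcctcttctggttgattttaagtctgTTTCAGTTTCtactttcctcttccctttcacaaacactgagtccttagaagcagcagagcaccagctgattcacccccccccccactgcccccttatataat
Rsad2: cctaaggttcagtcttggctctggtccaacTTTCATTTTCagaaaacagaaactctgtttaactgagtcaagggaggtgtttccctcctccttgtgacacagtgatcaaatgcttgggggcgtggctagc
Isg15: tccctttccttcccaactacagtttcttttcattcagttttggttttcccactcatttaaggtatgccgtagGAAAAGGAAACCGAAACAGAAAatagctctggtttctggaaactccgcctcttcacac
Oas3: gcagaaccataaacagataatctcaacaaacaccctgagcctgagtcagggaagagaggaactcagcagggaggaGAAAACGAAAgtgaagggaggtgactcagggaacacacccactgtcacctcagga
Cmpk2: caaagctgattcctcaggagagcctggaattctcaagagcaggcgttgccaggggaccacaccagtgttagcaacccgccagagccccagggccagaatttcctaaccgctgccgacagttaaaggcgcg

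Ifit1 held 2 matches, at 104 to 95 and at 85 to 76 bases upstream, and Rsad2 held 1 at 120 to 111. Ifit3 held the match shown at 122 to 113 and another at 156 to 147, beyond the stretch printed. In Isg15 there were 3 matches that overlapped, between 78 and 57 bases upstream. Over the 250 bases upstream of each start, on both strands, the motif was in 936 of 27025 genes of the table (3.46%) and in 338 of 9588 genes that could be matched among those counted below (3.53%). Among the 25 genes highest in the members, 19 were matched and 10 of them (52.6%) held it. A match is a description of letters and not of binding.

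The label was checked against macrophage genes that the rule did not name. Csf1r, the receptor for the growth factor on which macrophages depend, had 2032 CPM (the gene's UMIs scaled to 1000000 summed UMIs of the group) in NW members and 2109 in NW reference cells, and 2222 and 2106 CPM in ABX. Its ratio of members to reference was 0.963 (0.887 to 1.04) in NW and 1.05 (0.942 to 1.18) in ABX, and a UMI of it was found in all 56 members. Adgre1, which encodes F4/80, had ratios of 1.07 (0.869 to 1.30) and 1.20 (0.880 to 1.61), and Mertk, a receptor for dead cells, 1.35 (1.02 to 1.75) and 1.09 (0.725 to 1.58). Of the 11 macrophage identity genes in the list used, only Fcgr1 was at least 2-fold higher in both libraries and none was at 0.5 times or less in both. Over all genes counted below, the shares were 2.37% and 17.7%. The summed list stood at 1.01 (0.990 to 1.03) times the reference in NW and 1.06 (1.02 to 1.09) in ABX.

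Defining markers of lymphoid cells and of type 1 dendritic cells were at or near 0 in the members. Cd3e, Cd3d, Cd3g, Trac and Cd8a were at 0 UMIs in both libraries, of which Cd3e and Cd3d are 0 by the rule, and Xcr1, Clec9a and Itgae were also at 0, the first pair by the rule. The defining B cell genes Ms4a1 in both libraries and Cd79a and Cd79b in NW were at 0. Other genes of these lists were not: a UMI of the B cell list, mostly of Ighm, was in 32 of 35 NW and 20 of 21 ABX members, and 48.6% of NW members had 5 or more against 23.4% of reference cells (28.6% against 20.4% in ABX), although the summed list was at 0.204 and 0.258 times the reference. A UMI of the NK and innate lymphoid cell list was in 25.7% of NW and 28.6% of ABX members, against 21.1% and 20.4% of reference cells. In NW, 1 member held 14 of the 23 UMIs of this list. The plasmacytoid dendritic cell list, which holds the interferon-stimulated gene Bst2, was at 1.70 (1.5 to 1.92) and 1.83 (1.54 to 2.16) times. The summed type 2 dendritic cell list was at 1.45 (1.32 to 1.58) and 1.30 (1.13 to 1.49) times, but most of its genes were not higher. Of its 4 genes, none was at least 2-fold higher and 1 was at 0.5 times or less in both libraries. Over all genes counted below, these shares were 2.37% and 17.7%. The median log2 ratio of the 4 genes was -0.53 in NW and -0.79 in ABX. The part of such cells in the results was not tested. The lineage conditions were set on members only, and 16.1% of NW and 15.1% of ABX C1q cells failed them. The list sums against the reference, and the doublet shares below, are therefore not free of the rule. One NW member carried 174 of the 179 UMIs of mature dendritic cell genes (Fscn1, Ccr7, Ccl22, Cacnb3) found among NW members, beside 26 C1q UMIs and 98 UMIs of resident macrophage genes. This member had the lowest level of the antiviral gene list among NW members, and results that rest on it are also given without it. Doublet scores were under the limit of 0.2 in all members (0 of 35 and 0 of 21, which allows a share of up to 8.57% and 14.3%), against 4.78% and 5.30% of reference cells above it.

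Members differed from the reference cells in depth, with medians of 8092 against 5969 UMIs in NW and 6789 against 4563.5 in ABX, and in the mitochondrial share, 4.48% against 6.49% and 4.85% against 7.49%. The rule sets a minimum number of UMIs, which deep cells reach more easily, and the part of depth in the results below was not tested beyond the alternatives named. Of the barcodes, 371 were in both files, 196 of them past the filters in both, and 1 was that of a member.

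Among C1q cells, members made up 0.565% (0.394 to 0.784) in NW and 0.416% (0.258 to 0.635) in ABX. The log10 ratio of ABX over NW was -0.133 (-0.367 to 0.101), an interval that holds 0, so a difference was not detectable at this number of cells. As a share of all cells the members were 0.281% (0.196 to 0.390) in NW and 0.165% (0.102 to 0.252) in ABX, with a log10 ratio of -0.230 (-0.465 to 0.00424). The C1q cells themselves were 49.7% of NW and 39.7% of ABX cells, so the latter ratio carries both shares. With a rule sum of at least 12 in place of 8, the log10 ratio among C1q cells was -0.332 (-0.633 to -0.0311), an interval without 0, and with 12 per 10000 UMIs, which takes depth into account, it was 0.0392, so the answer depends on the limit. Any UMI of the 3 genes was found in 9.95% (9.22 to 10.7) of NW and 8.93% (8.16 to 9.75) of ABX C1q cells.

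The members were selected on their C1q and rule gene UMIs, so these values are given as a description and carry no test. They spread widely. The sum of Ifit1, Ifit3 and Rsad2 ran from 8 to 192 with a median of 18 in NW and from 8 to 82 with a median of 14 in ABX. In NW, 14 of 35 members had 20 or more and the 4 highest held 45.8% of all 1282 UMIs, and in ABX, 7 of 21 had 20 or more and the 4 highest held 43.9% of 412. The members therefore ranged from cells just over the limit to a few with very high levels, as the plot of each member's sum shows.

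**Figure D1:**
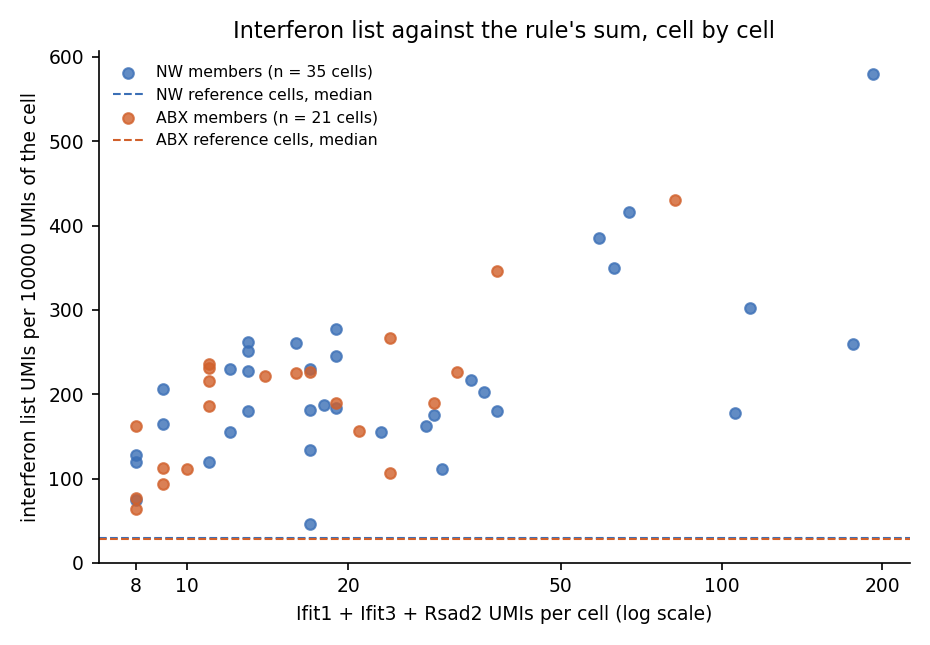
Each point is 1 member of the NW or the ABX library. The x axis is its summed Ifit1, Ifit3 and Rsad2 UMIs on a log scale, the y axis the UMIs of the antiviral gene list per 10000 UMIs of the cell, and the dashed lines are the medians of reference cells (29.4 and 27.9). Sums run from 8 to 192 in NW and from 8 to 82 in ABX, and every member lies above both lines.

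All 3 genes were found together in 34 of 35 NW members and 18 of 21 ABX members. Ifit1 ran from 0 to 32 UMIs with a median of 5 in NW, and from 0 to 13 with a median of 4 in ABX. Ifit3 ran from 2 to 57 with a median of 8, and from 1 to 22 with a median of 7. Rsad2 ran from 2 to 115 with a median of 6, and from 0 to 52 with a median of 5. Rsad2 was the highest of the genes in 15 NW and 5 ABX members, Ifit3 in 12 and 11 and Ifit1 in 6 and 5, so no single gene led the choice. The NW member with the highest sum had 32 UMIs of Ifit1, 45 of Ifit3 and 115 of Rsad2 among 5675 UMIs in all, or 3.38% of its transcripts.

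Cells just outside the limit resembled those just inside. Counting only C1q cells that met the lineage conditions, 6 NW and 11 ABX cells had a sum of 6, 5 and 2 had a sum of 7, 3 and 3 had a sum of 8, and 2 and 2 had a sum of 9. The antiviral list had a median of 125 UMIs per 10000 in the 19 NW cells with sums of 5 to 7, and of 127 in the 5 members with sums of 8 to 10. In ABX the medians were 109 in 20 cells and 102 in 6 members. The limit of 8 thus fell within a gradient. A further 5 C1q cells in each library reached the sum but were left out by the lineage conditions, and 11 NW and 12 ABX cells reached it with fewer than 10 C1q UMIs.

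The members were set against the reference gene by gene. For this, the UMIs of a gene in all cells of a group were added up within a library and divided by the group's total, 289880 UMIs for NW members and 144008 for ABX members. Of 12382 genes with at least 20 UMIs over members and reference in each library, 294 (2.37%) were at least 2-fold higher in the members of both. With a reference sampled to match the members' UMI counts, 158 of 5936 genes (2.66%) were. At least 5 member UMIs in each library were found for 4487 genes, of which 196 (4.37%) were at least 2-fold higher in both. A total of 2195 genes (17.7%) were at 0.5 times the reference level or less in both libraries, but 1775 of these had no member UMI at all and only 10 had 5 or more in each library, so the lower calls were nearly all of genes too rare to be counted in so few cells. Since the members were chosen for high levels of 3 interferon-stimulated genes, and genes with linked levels come with them, all these ratios describe the chosen cells and carry no test.

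Antiviral effectors were among the highest genes. Of the 47 genes in the list of antiviral effectors induced by type I interferon, which leaves out the genes of the rule, 43 were counted, 41 of these were at least 2-fold higher in the members of both libraries, and none was at 0.5 times or less, beside 2.37% higher over all genes. The median log2 ratio was 3.32 in NW and 3.2 in ABX, where all genes counted had medians of 0.02 and 0.14. Summed over the list, members held 6.31 times (6.15 to 6.48) the reference level in NW and 6.27 times (6.03 to 6.51) in ABX. Shisa5 (1.43 and 1.8 times) and Trim25 (1.85 and 1.34 times) were below 2-fold in both libraries, Ifit1bl2 and Ifi44 had under 20 UMIs in at least 1 library, and Mx2 and Ifi44l were not analysed here.

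Ifit2, the gene next to Ifit3 and a partner of its protein, had the highest ratio. It stood at 1111 CPM in NW members and 1.91 in NW reference cells, a ratio of 582 (448 to 763), and at 1257 against 2.70 CPM in ABX, a ratio of 466 (348 to 630). Ifit2 was found in 30 of 35 and 16 of 21 members, so its level did not rest on 1 cell. Ifit3b, a near copy of Ifit3, followed with 226 (153 to 338) and 346 (199 to 622). Reads of such copies can be split between them in counting, and the values of Ifit3 and Ifit3b are uncertain to that extent.

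Cmpk2, a mitochondrial nucleotide kinase gene that lies beside Rsad2, was 224 (167 to 304) times the reference in NW and 176 (115 to 268) times in ABX. Isg15, which encodes a ubiquitin-like protein attached to many targets, stood at 580 against 4.82 CPM in NW and 278 against 4.17 in ABX. Its ratios were 120 (96.9 to 149) and 66.6 (44.9 to 97.0). The dynamin-like antiviral GTPase gene Mx1 was 77.2 (60.5 to 98.1) and 54.4 (36.7 to 79.2) times the reference. Both genes were near absent from reference cells.

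Oligoadenylate synthetases make the second messenger that activates RNase L, and Oasl1 and Oasl2 encode related proteins. Oas3 was 78.6 (51.0 to 120) and 35.0 (13.1 to 80.3) times the reference, the latter from 7 UMIs. Oasl1 was 52.1 (40.5 to 66.5) and 28 (16.0 to 46.4) times, and Oasl2, which was found in all 56 members, 19.9 (17.4 to 22.7) and 25.9 (21.7 to 30.7) times. Oas1g, one of several near-identical Oas1 copies, was 18.6 and 25.1 times the reference and is uncertain for the same reason as Ifit3b. Family members thus differed in size but not in direction.

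Other antiviral genes had smaller ratios than Ifit2, and some of them were well expressed in the reference. Ifitm3, an inhibitor of viral entry, stood at 3119 against 1075 CPM in NW, 2.90 times (2.71 to 3.10), and at 2792 against 930 CPM in ABX, 3 times (2.71 to 3.31). Bst2, which encodes tetherin, was 5.75 (4.77 to 6.89) and 6.48 (4.92 to 8.39) times, and Eif2ak2, the kinase PKR that stops translation, 9.71 (7.91 to 11.8) and 9.04 (6.57 to 12.2) times. Xaf1, a proapoptotic gene, was 15.9 (12.4 to 20) and 16.3 (11.8 to 22) times the reference, and Rtp4 16.3 (13.8 to 19.3) and 19 (14.9 to 24.0) times. The intervals of these 5 genes overlapped between the libraries.

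**Figure D2:**
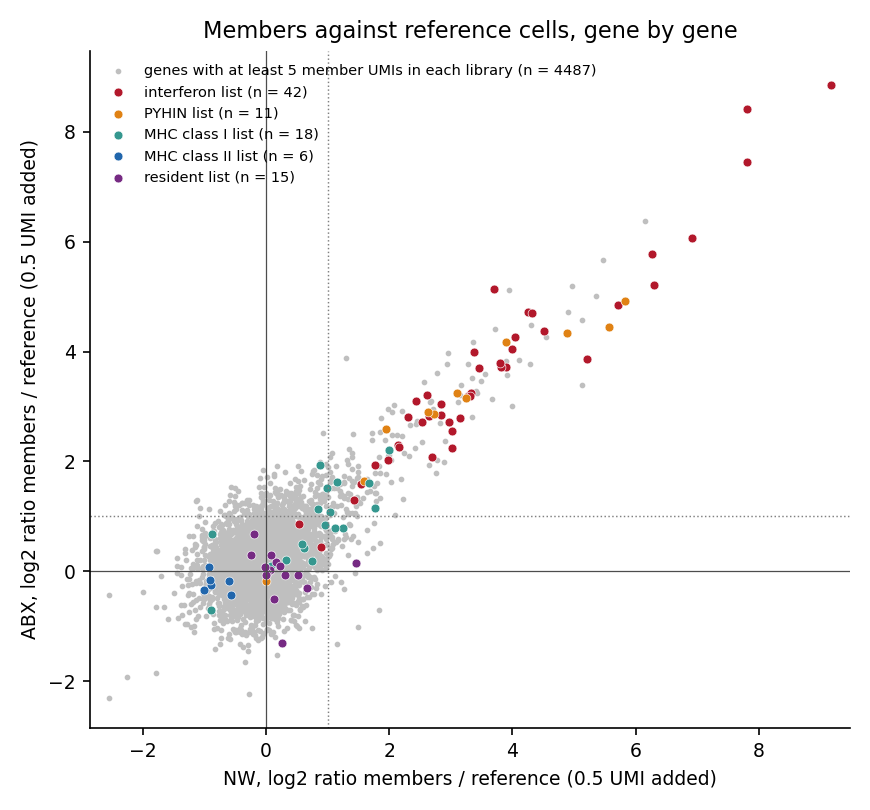
Each point is 1 of the 4487 genes with at least 5 member UMIs in each library, at its log2 ratio of members to reference in NW (x axis) and ABX (y axis), with 0.5 UMI added to each sum and dotted lines at 2-fold. Colours mark the antiviral, PYHIN, MHC class I, MHC class II and resident lists. Antiviral and PYHIN genes lie at the upper right, with Ifit2 farthest out, and MHC class II genes lie left of 0 in NW.

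Every member shared the pattern to some degree. The antiviral list took 46.4 to 580 UMIs per 10000 in NW members with a median of 187, against a median of 29.4 in the reference, and 63.5 to 430 with a median of 189 in ABX members, against 27.9. All 35 NW and all 21 ABX members were above the upper quartile of their reference cells. A member carried UMIs of 12 to 41 of the listed genes in NW (median 34) and of 16 to 41 in ABX (median 29). Across members the level of the rule genes and that of the list, both per 10000 UMIs, went together with a Spearman rho of 0.585 over 35 NW and 0.627 over 21 ABX members (Pearson r 0.778 and 0.775), as a description of values from the same cells and the same depth.

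The PYHIN genes lie in a cluster on chromosome 1 and encode proteins that bind DNA or act on transcription. Of 12 counted, 11 were at least 2-fold higher in both libraries, beside 2.37% over all genes. The summed list was 5.78 (5.52 to 6.05) times the reference in NW and 5.86 (5.49 to 6.25) times in ABX. Ifi206 was 56.6 (45.1 to 70.6) and 30.0 (21.3 to 41.4) times, Ifi208 47.5 (37.5 to 59.6) and 21.4 (13.9 to 31.8) times, and Ifi204 8.58 (7.65 to 9.60) and 9.43 (8.05 to 11) times. Aim2, the member that senses DNA in the cytosol and starts inflammasome assembly, was the exception with 0.956 (0.493 to 1.67) and 0.814 (0.298 to 1.78). The genes of this cluster are close in sequence, so the share of each is uncertain and the sum is firmer.

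Many of the highest genes were neighbours. Of the 28 genes made up of the 3 rule genes and the 25 with the highest ratios, 13 fell into 5 groups with gaps of at most 200000 bases, in GENCODE coordinates of GRCm38. Ifit2, Ifit3, Ifit3b and Ifit1 lay within chr19:34550694-34650009, Rsad2 and Cmpk2 within chr12:26442746-26479837, and Ifi206, Ifi213 and Ifi208 within chr1:173468485-173698395. Oasl2 and Oasl1 lay within chr5:114896936-114937915, and Oas3 and Oas1g within chr5:120753098-120887613. Of the 25, 12 were in the antiviral list and 22 in one of the lists used.

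The transcription factors of the pathway were not all higher. Stat2 was 10.7 (9.15 to 12.3) and 9.66 (7.67 to 12) times the reference, and Irf9, the DNA-binding part of ISGF3, 2.56 (1.93 to 3.32) and 2.60 (1.73 to 3.74) times. Irf7, the factor that amplifies interferon production, was 44.3 (35.2 to 55.3) and 50.1 (35.0 to 70.4) times. Irf1 was 3.43 (2.65 to 4.38) and 2.38 (1.58 to 3.45) times.

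Irf3, the factor that acts upstream and is switched on by phosphorylation, was at 0.931 (0.495 to 1.60) and 0.972 (0.390 to 2.01) times the reference, and Irf8, a lineage factor of myeloid cells, at 0.975 (0.747 to 1.25) and 1.08 (0.752 to 1.5).

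Of 14 sensors and adaptors, 7 were at least 2-fold higher in both libraries and none at 0.5 times or less, beside 2.37% and 17.7% over all genes. The cytosolic RNA sensors were among them. Ddx58, which encodes RIG-I, was 8.77 (6.88 to 11) and 9.09 (6.44 to 12.5) times the reference, Ifih1, which encodes MDA5, 11.7 (9.42 to 14.4) and 11.9 (8.56 to 16.1) times, and Dhx58, their regulator LGP2, 15.9 (11.7 to 21.2) and 7.78 (3.97 to 13.8) times. Zbp1, a sensor of left-handed nucleic acid, was 23.2 (17.3 to 30.7) and 18.9 (11.6 to 29.4) times.

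Mb21d1, which encodes the DNA sensor cGAS, was 2.45 (1.26 to 4.31) and 4.53 (2.46 to 7.67) times the reference, and Tlr3, the endosomal receptor for double-stranded RNA, 4.02 (2.40 to 6.33) and 5.35 (2.54 to 9.97) times. The adaptors downstream were near the reference level. Mavs was at 1.48 (0.785 to 2.54) and 1.40 (0.561 to 2.90) times and Tmem173, which encodes STING, at 1.23 (0.780 to 1.85) and 0.626 (0.230 to 1.37), each from 23 or fewer UMIs in a library.

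The receptors did not share the pattern. None of the 8 receptor and kinase genes counted was at least 2-fold higher in both libraries or at 0.5 times or less in both. Over all genes these shares were 2.37% and 17.7%, so the count of so few genes says little. Their summed level was 0.847 (0.75 to 0.953) times the reference in NW and 0.792 (0.662 to 0.939) times in ABX. Ifnar1 was at 0.668 (0.381 to 1.09) and 0.438 (0.142 to 1.02), from 16 and 5 UMIs, and Ifnar2 at 0.771 (0.440 to 1.25) and 0.805 (0.367 to 1.53). Ifngr1, a chain of the interferon gamma receptor, was at 0.598 (0.439 to 0.796) in NW and 0.881 (0.623 to 1.21) in ABX.

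Of 8 negative regulators counted, 4 were at least 2-fold higher in both libraries, beside 2.37% over all genes. At 0.5 times or less was 1, Nlrc3, with 1 UMI in NW and none in ABX members, beside 17.7% over all genes. Usp18, which removes Isg15 from proteins and blocks the receptor, was 40.7 (30.3 to 54.0) and 31.9 (20.6 to 47.6) times the reference. Adar, which edits double-stranded RNA and so keeps it from the sensors, was 5.72 (4.3 to 7.48) and 4.99 (3.27 to 7.31) times, and Samhd1, which degrades deoxynucleotides, 2.40 (2.10 to 2.73) and 3.04 (2.54 to 3.61) times. Socs1 was 2.33 (0.476 to 6.93) and 5.42 (1.74 to 12.9) times from 3 and 5 UMIs, too few to fix its level.

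Genes that respond most to interferon gamma were higher too. Their sum was 7.52 (6.98 to 8.09) times the reference in NW and 6.62 (5.96 to 7.34) times in ABX. Of 16 counted, 12 were at least 2-fold higher in both libraries, beside 2.37% over all genes. The immunity-related GTPases and guanylate-binding proteins, which attack the vacuoles of intracellular microbes, made up most of them. Iigp1, a GTPase of this kind that was in no list, was at 71.2 (59.8 to 84.7) and 82.8 (64.7 to 105) times, Igtp at 12.5 (9.02 to 17.1) and 8.56 (4.93 to 13.9) and Irgm1 at 10.1 (8.42 to 12.1) and 6.91 (5.13 to 9.13). Gbp2 was 10.2 (7.03 to 14.3) and 17.8 (10.9 to 27.6) times the reference.

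Cxcl9 and Ciita, a chemokine gene and the master regulator of MHC class II that respond to interferon gamma more than to type I interferon, were measured poorly or were lower. Cxcl9 had 6 UMIs, all in 1 NW member (20.7 CPM against 4.04 in the reference, a ratio of 5.13 with an interval of 1.85 to 11.4), and none in ABX members, where 0 of 144008 UMIs allows up to 20.8 CPM. Ciita was at 0.422 (0.211 to 0.757) times the reference in NW and 0.716 (0.343 to 1.32) times in ABX. The GTPases also respond to type I interferon, so the list does not tell the cytokines apart.

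MHC class I and peptide loading genes were modestly higher, with a summed ratio of 1.40 (1.35 to 1.44) in NW and 1.31 (1.24 to 1.37) in ABX. At least 2-fold higher in both libraries were 5 of 18 genes, beside 2.37% over all genes. The 5 were Tap1, Psmb9, Psme1, H2-T22 and H2-T23, and not the classical heavy chains. Tap1, a chain of the peptide transporter, was 3.97 (2.92 to 5.27) and 4.52 (2.99 to 6.58) times the reference, Psmb9, an immunoproteasome subunit, 2.17 (1.43 to 3.17) and 3.02 (1.84 to 4.68) times, and H2-T23, the nonclassical molecule Qa-1, 3.19 (2.62 to 3.84) and 3.02 (2.25 to 3.97) times. B2m, which all class I molecules share, was 1.54 (1.46 to 1.62) and 1.34 (1.23 to 1.46) times, H2-K1 1.25 (1.14 to 1.37) and 1.15 (1.00 to 1.31) times and H2-D1 1.05 (0.988 to 1.13) and 1.07 (0.972 to 1.17) times. H2 genes are close copies, which leaves each value uncertain.

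MHC class II was lower than in the reference, most in NW. The 7 genes summed to 0.571 (0.554 to 0.588) times the reference in NW and 0.857 (0.830 to 0.885) times in ABX. H2-Aa stood at 3260 against 6085 CPM in NW members and reference, and at 6257 against 7436 in ABX. Cd74, the invariant chain, was 0.658 (0.628 to 0.690) and 0.884 (0.838 to 0.932) times the reference. Reference cells did not have to meet the lineage conditions set for members, and the part of this in the class II ratios was not tested.

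Per cell, members spread widely. The class II genes took 9.28 to 668 UMIs per 10000 in NW members with a median of 115, against 268 in the reference, and 15 of 35 members lay below the reference's lower quartile. In ABX they took 9.41 to 867 with a median of 285, against 329, and 6 of 21 lay below it. High and low MHC class II cells were both among the members, and the interval for the sum does not cover this spread.

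**Figure D3:**
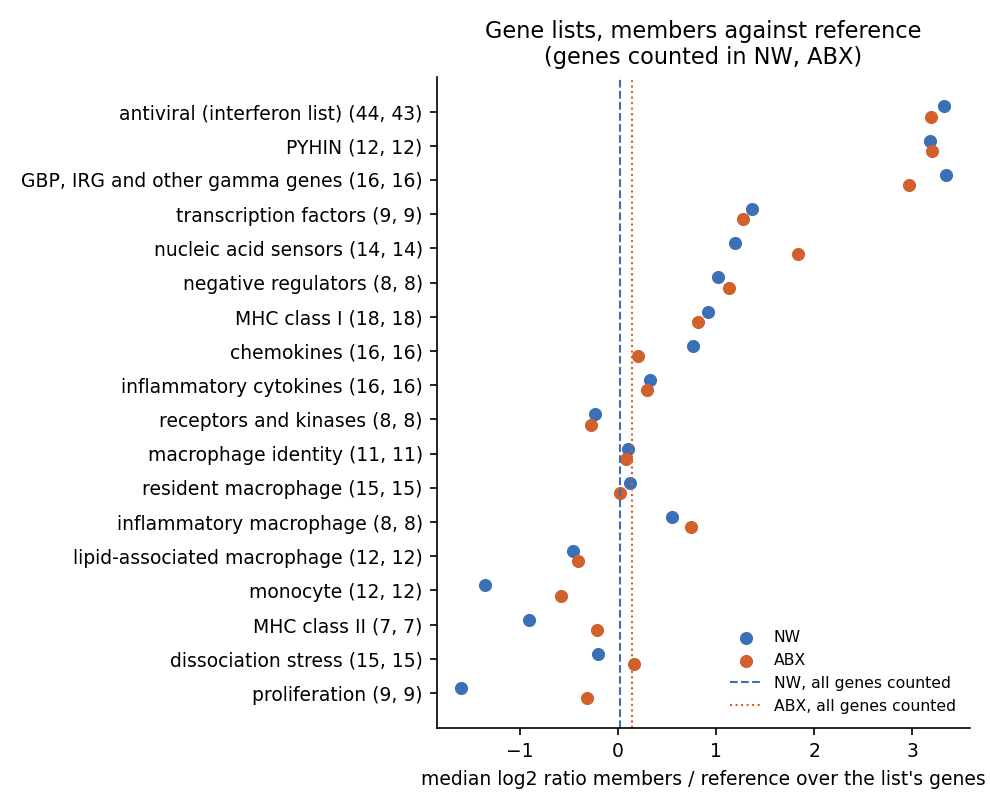
Median log2 ratio of members to reference over the genes of each list, for NW and ABX, with the number of genes counted in parentheses. The dashed and dotted lines are the medians of all genes counted, 0.02 in NW and 0.14 in ABX. The antiviral list is at 3.32 and 3.2, the resident list at 0.13 and 0.02, and MHC class II at -0.91 and -0.22.

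Chemokine genes differed in how many members carried them. Of 16 counted, 4 were at least 2-fold higher in both libraries and 1, Cxcl1, from 4 and 1 UMIs, was at 0.5 times or less, beside 2.37% and 17.7% over all genes. Among the 4 was Cxcl10, which recruits T cells and is the chemokine best known as an interferon target. Cxcl10 was 34.9 (27.0 to 44.6) and 10.2 (6.48 to 15.5) times the reference, but it was found in only 6 NW and 3 ABX members, and 1 member held 71.1% of its 83 NW UMIs. The monocyte attractant Ccl12 was 7.41 (6.21 to 8.78) and 3.93 (3.04 to 5.01) times and was found in 20 and 8 members, and Ccl8 was 2.76 (2.42 to 3.14) and 3.22 (2.61 to 3.93) times, in 21 and 7 members. The fourth, Ccl7, was 2.43 (1.64 to 3.48) times in NW and 14.7 (11.2 to 19.1) times in ABX, where 1 member held 65.1% of its UMIs.

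Of 16 cytokines and inflammatory regulators, 4 (Il15, Il18, Tnfsf10 and Il27) were at least 2-fold higher in both libraries, Il27 from 2 and 3 UMIs, and 2 (Il1rn and Ptgs2) at 0.5 times or less, with at most 1 member UMI in a library, beside 2.37% higher and 17.7% lower over all genes. Il15, which keeps NK and memory T cells alive, was 5.36 (3.41 to 8.06) and 6.48 (3.67 to 10.7) times the reference. Il18 was 3.15 (1.86 to 5.01) and 2.59 (1.11 to 5.14) times. Tnfsf10, the death ligand TRAIL, was 29.5 (19 to 44.5) and 25.5 (13.7 to 44.1) times. Tnf was at 2.29 (1.51 to 3.32) in NW and 0.816 (0.328 to 1.69) in ABX, and Il1b had 1 UMI in NW members and 16 in ABX members, all 16 in 1 cell.

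Fcgr1, the high-affinity Fc receptor CD64, was the identity gene that differed most. It stood at 362 CPM in NW members against 58.8 in the reference, 6.16 times (5.02 to 7.5), and at 417 against 58.9 in ABX, 7.08 times (5.37 to 9.16). A UMI of it was in 31 of 35 and 17 of 21 members, but in 26.8% and 21.7% of reference cells. With each cell thinned to 1000 UMIs the shares were 32.3% and 32.0% in members and 5.77% and 5.73% in the reference. In T cells (at least 2 UMIs of Cd3e and Cd3d and no C1q UMI, with medians of 2897 and 2908 UMIs), it was in 0 of 286 and 0 of 551 cells.

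The resident program was close to the level of the reference. None of 15 resident and perivascular macrophage genes was 2-fold apart in both libraries, beside 2.37% higher and 17.7% lower over all genes. Their sum was 1.10 (1.08 to 1.11) times the reference in NW and 0.931 (0.905 to 0.958) times in ABX. Mrc1, the mannose receptor, was 1.06 (0.968 to 1.15) and 1.23 (1.09 to 1.39) times, and Folr2 1.23 (1.13 to 1.34) and 0.95 (0.795 to 1.13) times. Lyve1, a hyaluronan receptor of perivascular macrophages, was 1.44 (1.32 to 1.57) and 0.95 (0.778 to 1.15) times. Timd4, a marker of long-lived resident macrophages, was 2.73 (2.10 to 3.48) times in NW, where 12 of 35 members held it, and 1.05 (0.479 to 2) times in ABX. Of 12 genes of lipid-associated macrophages, none was at least 2-fold higher and 4 (Gpnmb, Fabp4, Mmp12 and Ctsk) were at 0.5 times or less in both libraries, beside 2.37% and 17.7% over all genes. Their sum was 0.982 (0.938 to 1.03) times the reference in NW and 0.841 (0.780 to 0.906) times in ABX, and Trem2, a lipid receptor of these cells, was 1.47 (1.15 to 1.85) and 1.21 (0.795 to 1.76) times.

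Genes of monocytes were mostly too rare in the members to be measured. None of 12 was at least 2-fold higher and 8 were at 0.5 times the reference or less in both libraries, beside 2.37% and 17.7% over all genes, but only 1 of the 12 had 5 member UMIs in each library. Per cell, the list's median was 0.853 UMIs per 10000 in NW members against 1.83 in the reference, and 1.47 against 0.557 in ABX, where 13 of 21 members were above the reference median. The median log2 ratio was -1.36 in NW and -0.58 in ABX, while the summed list was at 0.445 (0.355 to 0.551) and 1.01 (0.791 to 1.26) times, since Nr4a1, an immediate early gene that also marks patrolling monocytes, held 68 of its 75 UMIs in ABX members. Fn1 had 1 UMI in NW members and none in ABX members, against 111 and 50.2 CPM in the reference. Ly6c2, the marker of classical monocytes, was at 0.271 (0.0738 to 0.695) and 0.172 (0.0208 to 0.623) times, from 4 and 2 UMIs. Ccr2, the receptor that brings monocytes into tissue, was at 0.161 (0.0693 to 0.317) times in NW and 0.718 (0.392 to 1.21) times in ABX.

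Genes that tissue digestion turns on were close to the reference. None of 15 immediate early and heat shock genes was 2-fold apart in both libraries, beside 2.37% higher and 17.7% lower over all genes. Their sum was 0.920 (0.896 to 0.944) and 1.06 (1.02 to 1.09) times the reference. Jun was at 1.09 (1.03 to 1.16) and 1.20 (1.10 to 1.30) times and Hspa1a at 0.867 (0.803 to 0.935) and 1.02 (0.926 to 1.12). Of 9 cell cycle genes, 3 (Top2a, Birc5 and Ube2c, with 4 or fewer member UMIs in a library) were at 0.5 times or less, beside 17.7% over all genes, and none at least 2-fold higher in both, beside 2.37%.

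The 10 genes lowest in the members, Slc35e1, Ms4a4b, Trac, Alox15, Ablim1, Cd3e, Dgcr8, Eepd1, Ube2c and Cyfip2, were all at 0 UMIs in both libraries. A count of 0 allows up to 10.3 CPM in NW and 20.8 in ABX. Ms4a4b, a T cell gene, was at 22.8 and 42.2 CPM in the reference, and Alox15, an enzyme typical of peritoneal macrophages, at 22.2 and 23.3. Cd3e is 0 by the rule, and T cells, which carry Trac and Ms4a4b, were kept out of the members but not out of the reference. Alox15 was found in only 35 of 5581 NW and 35 of 4600 ABX reference cells, so its absence from so few members says little. The ABX limit lies close to the reference levels, so how much lower the genes are could not be measured.

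The total of surface antibodies was similar. The 10 AbSeq antibodies together had a median of 197 UMIs in NW members and also 197 in ABX members, against 192 and 183 in reference cells. CD44, the highest, had medians of 54 and 56 in members against 63 and 58, and its median share of a cell's antibody UMIs was 23.1% in NW members against 35.6% in the reference, but 36.9% against 34.1% in ABX. NK-1.1 had medians of 43 and 38 against 33 and 36.

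Few interferon transcripts were counted. Of the 20 interferon genes listed other than Ifng, 6 could be read in the NW table and 4 in the ABX table, and the rest were not analysed here. Over all cells past the filters these had 13 UMIs in NW and 13 in ABX, with Ifnb1 at 9 and 4, and none was in a member. Ifng had 673 and 572 UMIs over all cells and also none in a member. Ifnb1 was found in 4 NW and 4 ABX cells, so some NW cells held more than a single UMI, and 8 and 3 of its UMIs were in C1q cells. Where a cell held a single UMI of such a gene, it cannot be told from background.

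The list levels followed the number of rule UMIs below the limit as well. In NW the antiviral list took 32.0 (31.8 to 32.2) UMIs per 10000 in C1q cells with a sum of 0, 45.5 (44.9 to 46.1) with 1 or 2, 82.9 (81.1 to 84.8) with 3 to 7, 170 (164 to 176) with 8 to 19 and 245 (236 to 254) with 20 or more. In ABX the values were 30.4 (30.1 to 30.6), 47.8 (46.9 to 48.7), 92.4 (89.8 to 95), 162 (154 to 171) and 237 (225 to 250). There were 480, 97, 21 and 14 NW cells and 347, 78, 14 and 7 ABX cells in the bins above 0. Each step was higher than the last in both libraries. The lower bins held no lineage conditions, and cells with 1 or 2 rule UMIs were also deeper than those with 0, with medians of 7912.5 against 5969 UMIs in NW and 5753 against 4563.5 in ABX.

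The other lists were ordered less clearly. Gamma-responsive genes went from 3.52 to 36.7 UMIs per 10000 between the lowest and the highest bin in NW and from 3.96 to 34.0 in ABX, and MHC class I genes from 83.3 to 124 and from 84.5 to 110. MHC class II genes took 260 per 10000 at a sum of 0 and 202, 207, 141 and 159 in the bins above it in NW. In ABX they took 311, 259, 236, 301 and 210. They were lower in every bin above 0 than at 0 but followed no order among these.

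**Figure D4:**
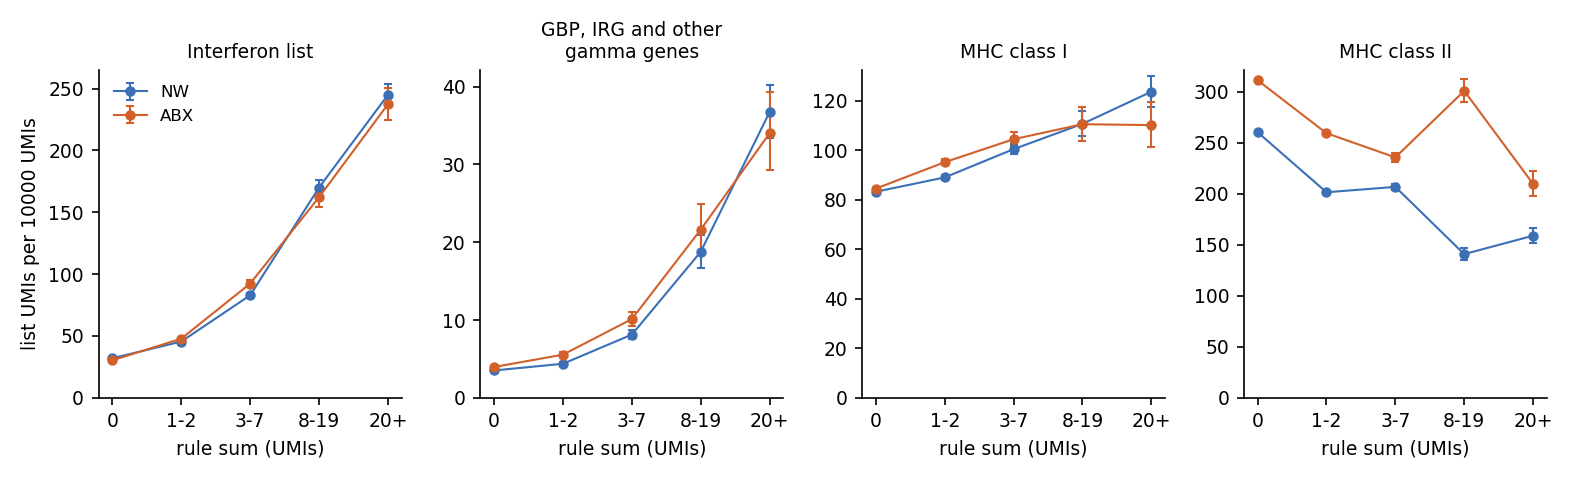
Summed UMIs per 10000 of the antiviral, gamma-responsive, MHC class I and MHC class II genes in C1q cells binned by their summed Ifit1, Ifit3 and Rsad2 UMIs, for NW and ABX, with 95% counting intervals. The antiviral list goes from 32.0 to 245 in NW and from 30.4 to 237 in ABX.

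Between the conditions, the antiviral list was slightly lower in ABX members in most settings, as it was in reference cells. The antiviral list had a median log2 ratio of ABX over NW of -0.03 over 42 genes with at least 20 UMIs, and its sum differed by -0.086 (-0.152 to -0.020). In reference cells the corresponding values were -0.04 and -0.076. With other limits and scalings the median ran from -0.24 to 0.10 and was above 0 only with a minimum sum of 12, so its sign depended on the limit. Without the NW member with mature dendritic cell genes, the list's sum in members differed by -0.147 (-0.213 to -0.081). Ifit2 was at 1.13 (0.938 to 1.36) times NW in ABX and Oasl2 at 1.21 (0.986 to 1.49), while Isg15 was at 0.479 (0.331 to 0.680) and Oasl1 at 0.390 (0.221 to 0.650). The genes of the rule, by which the members were chosen, summed to a log2 ratio of -0.63 (-0.79 to -0.47). The 4 highest members held 45.8% of these UMIs in NW and 43.9% in ABX, and their part in the ratio was not tested.

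Over all 1561 genes with at least 50 UMIs in the members of both libraries together, 145 (9.29%) were at least 1.5-fold higher in ABX members and 184 (11.8%) at least 1.5-fold lower. Of 3624 genes with at least 20 UMIs, 545 (15%) were higher and 602 (16.6%) lower by that limit, and of the 42 antiviral genes among them 2 (Oas2 and Ms4a4c) were higher and 8 lower. With 35 and 21 cells, 1 cell can carry such a difference, and the intervals do not cover the spread between cells.

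MHC class II genes were higher in ABX members. Of 6 genes counted, 5 were at least 1.5-fold higher in ABX members, beside 15% over all genes with at least 20 UMIs. The sum had a log2 ratio of 0.84 (0.78 to 0.91), against 0.26 in reference cells. H2-Ab1 stood at 5701 CPM in ABX and 2925 in NW members, 1.95 times (1.77 to 2.15). Without the NW member that carried mature dendritic cell genes, the list's log2 ratio was 0.85 (0.79 to 0.92). Members of both libraries overlapped over nearly their whole range, as given above, and whether the mice or the cells sampled differ cannot be told apart with 1 library each.

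Chemokine genes summed to a log2 ratio of -0.52 (-0.61 to -0.43) in members and -0.23 in reference cells. Ccl6, the most abundant of them, was at 6844 CPM in NW and 3673 in ABX members, 0.537 times. The stress genes differed by 0.15 (0.089 to 0.215), against -0.05 in reference cells, with Fos at 1.53 times NW.

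The resident genes were lower in ABX members, with a summed log2 ratio of -0.48 (-0.53 to -0.44) against -0.25 in reference cells. Retnla, a secreted protein of alternatively activated macrophages, weighed most on it, at 11900 CPM in NW and 2472 in ABX members, 0.208 times (0.186 to 0.232). In reference cells it stood at 9962 and 6134 CPM. A Retnla UMI was also in 66.4% of NW and 42.8% of ABX T cells, defined as for Fcgr1, and the part of background in its level was not tested. Lyve1 was at 0.403 (0.325 to 0.497) times NW, Timd4 at 0.279 (0.122 to 0.562) and Folr2 at 0.493, with 0.639 for Folr2 in reference cells, while Mrc1 was at 1.08. Capg, an actin-capping protein, had 50 UMIs over 15 NW members and 1 UMI in ABX, 0.0403 times (0.000999 to 0.235). Adam33, a membrane protease, was at 0.224 (0.0786 to 0.519) times, with 54 and 6 UMIs.

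Others among the 10 genes lowest in ABX members rested on the NW member with mature dendritic cell genes. Ccr7, the receptor that leads dendritic cells to lymph nodes, had 56 UMIs in NW, 55 of them in this member, and none in ABX. Without it, Fscn1 was at 2.86 (0.328 to 34.2) times NW in place of 0.0827, Ccl5 at 0.381 (0.00806 to 3.41) in place of 0.0335, Tmem123 at 0.795 (0.339 to 1.72) in place of 0.153, Lsp1 at 0.440 (0.148 to 1.09) in place of 0.220 and Vim at 0.587 (0.392 to 0.859) in place of 0.263. Without it Retnla was at 0.198 times NW, Capg at 0.0415, Adam33 at 0.212 and Ccl4 at 0.232, each within 0.02 of its value over all members.

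The 10 genes highest in ABX members were Jaml, Ccl7, Sema4d, Acap2, Ms4a4c, Arid4a, Slfn9, Hp1bp3, Enpp4 and Cd52. Jaml, a junctional adhesion molecule, had 15 UMIs over 6 NW members and 37 over 14 ABX members, 4.97 times (2.66 to 9.74). Sema4d had 23 UMIs over 15 NW members and 45 over 15 ABX members, 3.94 times. Ms4a4c, of the antiviral list, and Slfn9, of the Schlafen family, were at 2.80 and 2.55 times NW and stood above the reference in both libraries, Ms4a4c at 12.8 (7.93 to 19.6) and 34.7 (22.9 to 51.0) times and Slfn9 at 15.2 (9.68 to 22.8) and 34.4 (22.9 to 50.3) times. Ccl7, at 4.23 times, rested on 1 ABX member as given above.

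**Figure D5:**
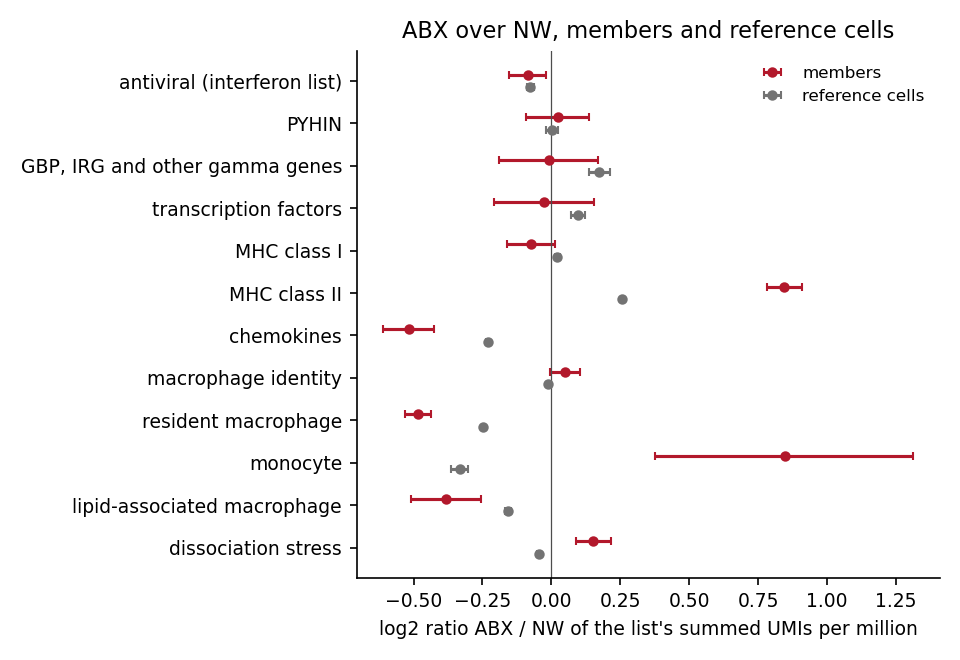
Log2 ratio of ABX over NW of each list's summed UMIs per group total, in members and in reference cells, with 95% counting intervals. MHC class II is at 0.84 in members and 0.26 in reference cells, the resident genes are at -0.48 and -0.25, and the antiviral list is at -0.086 and -0.076.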

How the data were processed

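Single-cell RNA sequencing with AbSeq antibodies (BD Rhapsody whole transcriptome assay) was performed on CD45+ VAT cells, 1 library per condition. The authors ran the BD WTA Rhapsody pipeline (version 1.8) on GRCm38 and deposited UMI counts of each gene and antibody per cell barcode, as whole numbers without normalization. The submitters' processing notes also name R 3.6.0, Seurat 3.0.1 and mm10. The authors' clusters were not used here.

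Cells with fewer than 500 gene UMIs, fewer than 200 genes or more than 25% mitochondrial UMIs were left out, as in the study, and 12474 NW and 12724 ABX cells remained, with medians of 5092 and 3845.5 UMIs. The members and the gene lists were chosen with earlier results of these data known. The UMIs of a gene were summed over the cells of a group in each library and divided by the group's total (CPM). Ratios carry exact conditional 95% intervals for Poisson rates and shares carry Clopper-Pearson intervals, which cover counting error only. Log2 values add 0.5 UMI to each sum. Genes counted had at least 20 UMIs over members and reference in each library, and the limit for a call was 2-fold in both. Between the conditions, all-gene counts used genes with at least 50 UMIs and a 1.5-fold limit, and the lists used genes with at least 20. Levels are per UMI of the 3′-counting assay and not per gene length.

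The text names the rule genes, the 25 genes whose lower ratio of both libraries was highest, the 10 genes whose higher ratio was lowest, the 10 highest and 10 lowest of ABX over NW in members, and genes of the lists. Values within lists were picked for the genes' roles after the values were seen. Scrublet (scanpy 1.11.5) scored doublets in each library, with a limit of 0.2 set here, and none was removed. Python 3.11.15, numpy 2.4.6, scipy 1.17.1, pandas 2.3.3 and matplotlib 3.10.9 were used, and edgeR 4.0.16 in R 4.3.3 for TMM factors of an alternative scaling. The ratios and calls were also run on simulated Poisson sums with known ratios. These sums hold no spread between cells and no choice of cells by the rule. The run therefore cannot show how the intervals and calls behave for the chosen members. Promoters are RefSeq windows of GRCm38.p6, and gene positions are from GENCODE M21 (GRCm38). Values of a few genes are left out here.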

Additional observations from a re-analysis of the deposited data

How the results depend on the processing

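The limits are those of 1 library per condition and of 56 cells. No paired analysis was possible because each condition had 1 library, and no replicate could be left out. The log10 share ratio ranged from -0.332 to 0.0392 over its 9 alternatives, and its interval excluded 0 at a minimum sum of 12. The count of genes at least 2-fold higher in both libraries was between 196 and 325 in its other alternatives and 158 with the reference matched on UMIs, where fewer genes (5936) were tested. The median log2 ratio of the antiviral list, 3.32 in NW and 3.2 in ABX, stayed between 2.87 and 3.51 in every alternative run. It was 3.02 and 2.87 with a minimum sum of 5, 3.47 and 3.51 with 12, 3.49 and 3.25 with 12 per 10000 UMIs, and 3.38 and 3.34 as a mean over cells. In NW it was 3.27 with a C1q minimum of 20, 3.21 with 5, 3.37 with the matched reference and 3.36 with TMM scaling. ABX over NW in members, -0.034, was -0.10 with a minimum sum of 5, 0.097 with 12, -0.24 with 12 per 10000, -0.12 with NW thinned to the ABX depth, -0.13 with TMM and -0.12 as a mean over cells. In reference cells, -0.043, it was -0.013 with a C1q minimum of 20, -0.023 without predicted doublets, -0.028 with a mitochondrial limit of 10%, -0.069 with the matched reference and -0.12 with TMM. Alternatives chosen after seeing the data gave 3.36 and 3.40 with the lineage conditions applied to the reference (-0.0057 for reference cells), 3.22 in NW without the highest member of each library (-0.11 in members), 3.38 in NW without the member with mature dendritic cell genes (-0.10 in members), and 3.18 and 2.95 with added counts scaled to group size. The cause of these shifts was not tested.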
